A study of Mus musculus with 6 samples.

Results

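The ERR, PPAR, RXR and LXR nuclear receptors are the transcription factors through which the coactivator PGC-1α (gene Ppargc1a) is best known to reach its target genes. The 10 genes described are Esrra, Esrrb, Esrrg, Ppara, Ppard, Pparg, Rxra, Rxrb, Nr1h2 and Nr1h3. They were chosen by name, and each array probe was assigned to them through the transcript accession that the scanner file gives. All 10 had a probe, among 23462 genes with a named probe, and they were covered by 17 probes, of which 13 were tested. In 9 of the 10 genes a probe was bright enough to be tested, among 12302 genes with a tested probe that had a value on every array.

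Microglia came from C57BL/6 mice labelled male and aged 10 weeks, were isolated with a magnetic kit that selects for the surface protein P2RY12, and filled 3 arrays per group. All mice carried a loxP-flanked PGC-1α allele with an eGFP gene (PGC-1αf/f), and littermates of this genotype that lacked Cre served as controls. In mPGC-1α mice, a tamoxifen-activated Cre recombinase in the Cx3cr1 locus switched PGC-1α overexpression on, and whether the control mice of these arrays also received tamoxifen is not stated for them. Cx3cr1 is also active in border macrophages and in some blood monocytes, so the Cre driver is not exclusive to microglia. Per the study's methods, mice were used after an interval from tamoxifen that was meant to make induction specific.

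These receptors sit in the nucleus and bind short DNA elements related to the hexamer AGGTCA. RXRs pair with PPARs and LXRs, whereas ERRs can bind an extended single copy of the hexamer and need no known natural hormone. ERRs and PPARs are known as regulators of oxidative metabolism and fatty acid use, and LXRs, which sense oxysterols, as regulators of cholesterol efflux in macrophages and microglia.

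Values are log2 intensities minus the 75th percentile of their array, so that 0 is the signal at that percentile. They were compared with limma, a linear model with a moderated variance, and p-values were adjusted by Benjamini-Hochberg over 25257 probes. All 12 microglial marker genes had a probe well above background on every array. PGC-1αf/f replicate 3 stood apart, correlating on average at 0.928 with the remaining arrays, where those had means of 0.962 to 0.972. mPGC-1α replicate 3, although labelled male, had 0 of 6 Y-linked probes well above background, against 5 or 6 on each other array. Xist, another sex-linked transcript, was highest on that same array, at -1.63 against -6.47 to -2.40 on the others. The control arrays lay in one row of the slide and the mPGC-1α arrays in the other, so slide row and group cannot be told apart. Nothing beyond the labels states that the replicates were separate animals, so the p-values measure the spread between these samples, and 3 arrays per group limit the precision.

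None of the 9 receptor genes passed an adjusted p of 0.05. Of all genes, 0.065% passed. At an unadjusted p under 0.05, 3 receptor genes (Esrrb, Esrrg and Nr1h3) were higher in mPGC-1α microglia, beside 8.16% of all genes. At that level 0 were lower, beside 5.71% of all genes. The same 3 were higher with no overlap between the groups, beside 12.2% of all genes, and 1 (Rxrb) was lower with no overlap, beside 10.8%. Without PGC-1αf/f replicate 3 the counts of higher genes were again 3 and 3, and without mPGC-1α replicate 3 they were 2 at an unadjusted p under 0.05 and 4 with no overlap. The representing probe of the targeted gene itself, Ppargc1a, read 0.19, -0.44 and -1.21 in controls against 0.57, 0.28 and 0.08 in mPGC-1α microglia. These groups overlapped, and the difference of 0.80 (SE 0.35, adjusted p = 0.306) was not past the threshold. It was 0.44 when PGC-1αf/f replicate 3, the lowest array, was left out. Whether this probe reads the transgene was not tested.

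**Figure D1:**
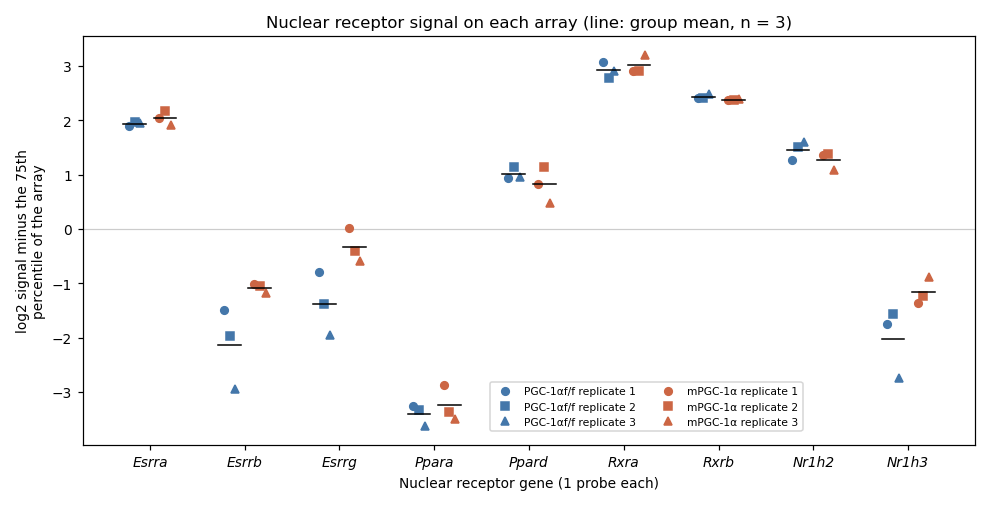
Each point is 1 array and each black line a group mean (n = 3); the y axis gives log2 signal minus the 75th percentile of the array, for the probe that represents each of 9 receptor genes. The mPGC-1α points lie wholly above the PGC-1αf/f points for Esrrb, Esrrg and Nr1h3, and PGC-1αf/f replicate 3 is the lowest point of each of these 3 genes.

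Esrra encodes ERRα, the main partner of PGC-1α in the expression of mitochondrial genes (chr19:6910977-6922048, GRCm38.p6). Its probe read 1.89, 1.97 and 1.95 in controls against 2.04, 2.17 and 1.92 in mPGC-1α microglia. The control values were nearly alike, mPGC-1α replicate 3 lay within their range and the other mPGC-1α arrays lay above it. The log2 difference was 0.11 (SE 0.13, 95% interval -0.20 to 0.41, limma adjusted p = 0.696). In linear terms the interval ran from 0.871-fold to 1.33-fold, so changes of Esrra larger than that lay outside it. With 1 array left out in turn the difference ranged from 0.04 (without mPGC-1α replicate 2) to 0.17 (without mPGC-1α replicate 3), and it was 0.11 without PGC-1αf/f replicate 3.

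Esrrb encodes ERRβ, known for its part in pluripotent cells and in the placenta and inner ear (chr12:86361117-86521628). Its probe read -1.49, -1.98 and -2.95 in controls against -1.02, -1.05 and -1.18 in mPGC-1α microglia. The 3 mPGC-1α values lay close together and above every control, while the controls were spread over a much wider range. Group means were -2.14 ± 0.74 and -1.08 ± 0.08 (SD, n = 3 each). The log2 difference was 1.05 (SE 0.35, 95% interval 0.23 to 1.88), a fold of 2.08, with a limma adjusted p of 0.234. Without PGC-1αf/f replicate 3 it was 0.65 and without mPGC-1α replicate 3 it was 1.103.

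Esrrg encodes ERRγ, which drives oxidative genes in heart, muscle and neurons (chr1:187608510-188214885). The probe that represents it read -0.80, -1.39 and -1.96 in controls against 0.03, -0.41 and -0.59 in mPGC-1α microglia. Every mPGC-1α value was above every control, although mPGC-1α replicate 3 and PGC-1αf/f replicate 1 were near each other. The log2 difference was 1.05 (SE 0.31, 95% interval 0.31 to 1.79, limma adjusted p = 0.208). A further Esrrg probe read -1.44, -2.44 and -3.23 against -0.84, -1.27 and -1.66. On that probe the groups overlapped, and the difference was 1.11 (SE 0.45, adjusted p = 0.285). The representing probe gave 0.76 without PGC-1αf/f replicate 3 and 1.19 without mPGC-1α replicate 3.

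**Figure D2:**
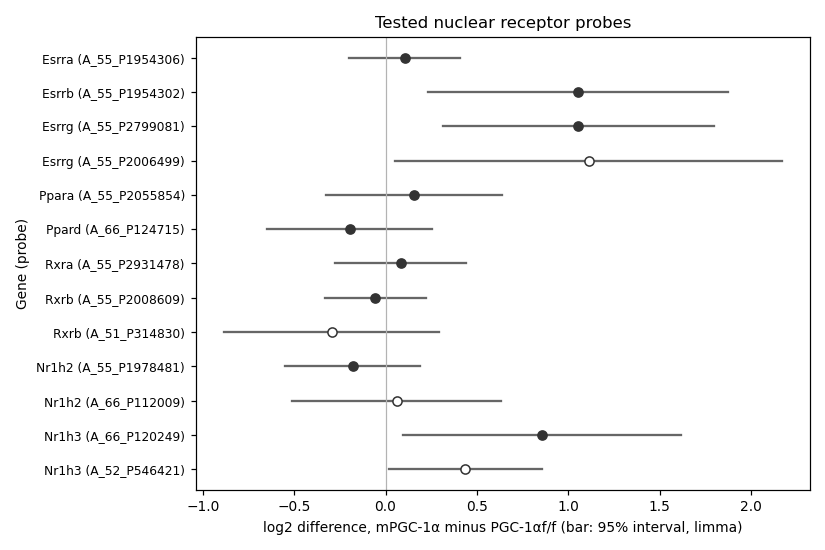
Points are log2 differences (mPGC-1α minus PGC-1αf/f) of the 13 tested receptor probes and bars their 95% intervals from limma; filled points are the probes that represent a gene and open points its other probes. The intervals of Esrrb, Esrrg and Nr1h3 lie above 0 without adjustment for the number of probes, and those of the other genes include 0.

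Among the PPARs, which bind fatty acids and their derivatives, neither Ppara nor Ppard passed an unadjusted p of 0.05. Ppara, the receptor that drives fatty acid oxidation in liver and heart, read -3.25, -3.32 and -3.63 in controls against -2.88, -3.36 and -3.50 in mPGC-1α microglia. The groups overlapped, and the probe was well above background on 2 of 3 control arrays and on all 3 mPGC-1α arrays. Its difference was 0.16 (SE 0.20, limma adjusted p = 0.712), 0.04 without PGC-1αf/f replicate 3 and 0.28 without mPGC-1α replicate 3. Another Ppara probe was well above background on 0 control arrays and 2 mPGC-1α arrays, so it was not tested.

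Ppard, the widely expressed PPAR, read 0.94, 1.14 and 0.96 against 0.84, 1.14 and 0.48. The groups overlapped, mPGC-1α replicate 3 being the lowest array. The difference was -0.20 (SE 0.19, adjusted p = 0.616), and -0.03 without that array. Pparg, the adipocyte and alveolar macrophage receptor after which PGC-1α is named, read -3.41, -3.98 and -4.60 against -3.33, -3.25 and -3.50. Those values came from a single probe that was well above background on 0 of 3 PGC-1αf/f arrays and 1 of 3 mPGC-1α arrays. Pparg was therefore not well above background in the controls, and its difference was not tested.

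Neither of the RXR genes, which encode the shared partners of PPARs and LXRs, passed the test. Rxra read 3.08, 2.79 and 2.92 in controls against 2.91, 2.92 and 3.21 in mPGC-1α microglia. The groups overlapped, and the difference was 0.08 (SE 0.15, 95% interval -0.28 to 0.44, limma adjusted p = 0.803). Its direction was not stable, being -0.02 without mPGC-1α replicate 3, -0.01 after quantile normalization and -0.05 after scaling by medians. Another Rxra probe was well above background on 0 arrays.

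Rxrb was represented by a probe that read 2.42, 2.41 and 2.48 in controls against 2.37, 2.37 and 2.39 in mPGC-1α microglia. Every mPGC-1α value lay below every control value, but by very little. The difference was -0.06 (SE 0.12, adjusted p = 0.825), about 0.961-fold, and -0.04 without PGC-1αf/f replicate 3. A further Rxrb probe differed by -0.30 (SE 0.25, adjusted p = 0.561). That probe was well above background on 3 control arrays and 2 mPGC-1α arrays. It thus entered the test only through the controls, the group where it was higher. The remaining one was well above background on 2 arrays of each group and was not tested.

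The 2 LXR genes gave different values. Nr1h2 encodes LXRβ, the widely expressed form (chr7:44549616-44553968), and read 1.26, 1.50 and 1.60 against 1.37, 1.37 and 1.09. The groups overlapped. The difference was -0.18 (SE 0.16, 95% interval -0.55 to 0.19, limma adjusted p = 0.570), and a further probe differed by 0.06 (SE 0.24, adjusted p = 0.917). The representing probe gave -0.11 without PGC-1αf/f replicate 3 and -0.09 without mPGC-1α replicate 3.

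Nr1h3 encodes LXRα, the form enriched in macrophages, liver and fat (chr2:91184061-91202829). Its representing probe read -1.75, -1.56 and -2.75 in controls against -1.37, -1.23 and -0.88 in mPGC-1α microglia. All 3 mPGC-1α values were above all 3 controls. The log2 difference was 0.86 (SE 0.32, 95% interval 0.10 to 1.62), a fold of 1.81, with a limma adjusted p of 0.268. Another Nr1h3 probe read -2.85, -2.70 and -3.23 against -2.55, -2.59 and -2.34, again with no overlap between the groups, and differed by 0.44 (SE 0.18, adjusted p = 0.287). The difference of the representing probe was 0.49 when PGC-1αf/f replicate 3 was left out, and without mPGC-1α replicate 3 it was 0.72. The difference between Nr1h3 and Nr1h2 in response was not tested.

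**Figure D3:**
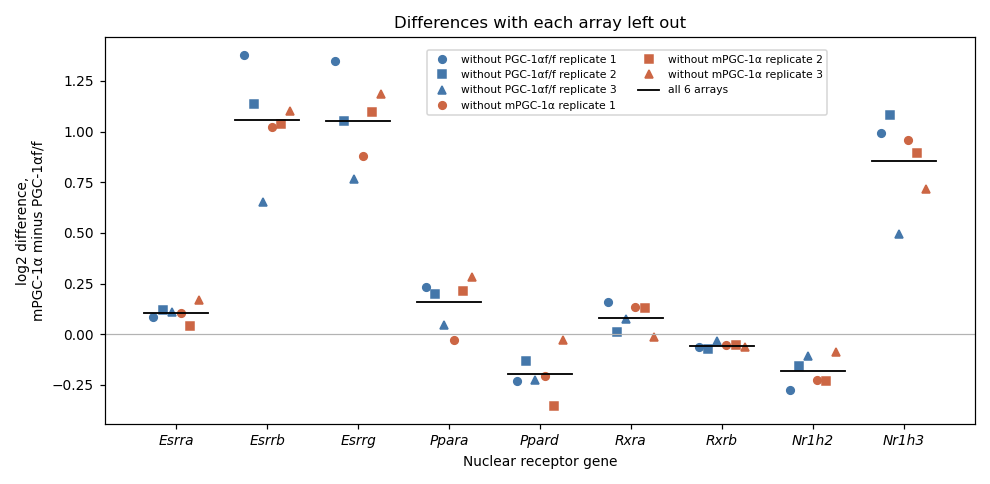
Points are log2 differences (mPGC-1α minus PGC-1αf/f) after leaving out 1 array, coloured by the group of the array left out; black lines are the values from all 6 arrays. Esrrb, Esrrg and Nr1h3 stay above 0 with any array left out and are lowest without PGC-1αf/f replicate 3 (0.65, 0.76 and 0.49).

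Slide columns 1 and 2 each held an array of both groups, which gave a comparison within a column. For Esrrb the mPGC-1α array exceeded the control by 0.47 in column 1 and 0.92 in column 2. For Esrrg these differences were 0.82 and 0.97, and for Nr1h3 they were 0.38 and 0.33. Esrra differed by 0.15 and 0.20. With slide column as a random block, the fitted differences were 0.96 for Esrrb, 1.01 for Esrrg and 0.72 for Nr1h3.

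Genes with a mean signal under the 75th percentile, to which Esrrb, Esrrg and Nr1h3 belong, varied more than brighter genes. Their median SE was 0.213 (5515 genes) against 0.155 (6787 genes). Among them 10.4% were higher by at least 0.86, the size of the Nr1h3 difference, and 13.9% were higher with no overlap between the groups. Among brighter genes, those shares were 2.45% and 10.7%.

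Marker lists of several other cell types had positive median differences, as Esrrb, Esrrg and Nr1h3 did. The kit selects for P2RY12, which most of these cell types lack. In bulk samples, fewer cells of a type and less RNA per cell cannot be told apart. Of 13 blood leukocyte markers, 9 were tested, 1 was never well above background, and the median difference of those tested was 1.07. The summed linear signal of these markers, in units of the 75th percentile, was 23.0 to 78.3 in controls against 81.7 to 98.2 in mPGC-1α microglia. Their mean log2 signal was -0.003 on PGC-1αf/f replicate 3 and at least 1.83 on the other arrays. For the endothelial and mural list (6 of 10 tested) the median difference was 0.64, with sums of 3.84 to 15.1 against 14.3 to 18.9. Its brightest gene, Ly6c1, read 3.34, 3.51 and 1.22 in controls against 3.53, 3.77 and 3.76 in mPGC-1α microglia. The leukocyte marker Ly6c2 was close to this, at 3.33, 3.55 and 1.24 against 3.55, 3.83 and 4.01. Leaving out PGC-1αf/f replicate 3 reduced the medians to 0.24 for leukocyte markers and 0.06 for endothelial and mural markers.

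Border macrophage markers (7 of 8 tested) had a median difference of 0.38 and sums of 8.44 to 10.3 against 9.11 to 16.2. The medians were 0.21 for neurons (6 of 9 tested), 0.07 for astrocytes (7 of 8), 0.12 for erythroid cells (3 of 6), -0.61 for oligodendrocytes (9 of 9) and -0.05 for microglia (7 of 12). In the oligodendrocyte list, Mog (-1.39) and Opalin (-1.57) entered the test only through the controls, the group where they were higher. Pdgfra alone of that list was higher in mPGC-1α microglia, by 1.24. Sums ran from 13.3 to 17.3 against 15.5 to 17.7 for neurons, from 12.9 to 17.0 against 15.1 to 23.5 for astrocytes, and from 4.90 to 20.7 against 11.3 to 20.5 for erythroid cells. They ran from 15.7 to 19.1 against 10.2 to 13.1 for oligodendrocytes, the only one of these lists with sums lower in every mPGC-1α array, and from 133.6 to 163.9 against 126.2 to 144.0 for microglia. Leaving out mPGC-1α replicate 3 gave a median of 0.09 for border macrophages. With PGC-1αf/f replicate 3 left out the medians were 0.32 for border macrophages, -0.04 for neurons, -0.0002 for astrocytes, -0.56 for erythroid cells, -0.51 for oligodendrocytes and -0.10 for microglia. Their part in the values of Esrrb, Esrrg and Nr1h3 was not tested.

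**Figure D4:**
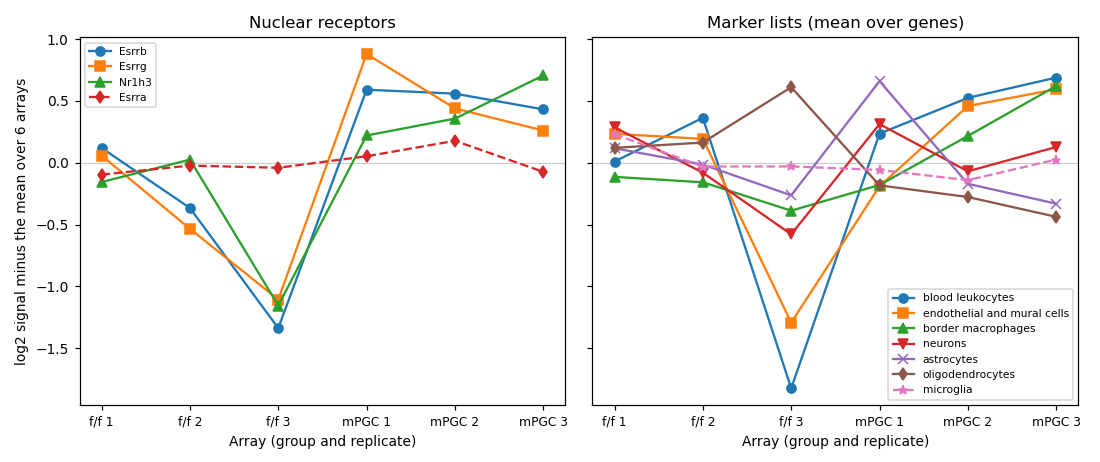
Left, log2 signal of 4 receptor genes on each array minus the mean over the 6 arrays; right, the same for the mean of each marker list, with f/f for PGC-1αf/f and mPGC for mPGC-1α. PGC-1αf/f replicate 3 is the lowest array for Esrrb, Esrrg, Nr1h3 and for the leukocyte, endothelial, border macrophage and neuronal lists, it is the highest for the oligodendrocyte list, and Esrra and the microglial list vary little.

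The genes whose pattern was most like a receptor's were found by Pearson correlation of log2 values over the 6 arrays, among 12301 other genes. For Esrra they were Slc25a29 (r = 0.98), which encodes a mitochondrial carrier of basic amino acids, Tnpo1 (r = 0.96), which encodes a nuclear import receptor, and Prxl2c (r = 0.96). In all, 9 genes exceeded an r of 0.95 with Esrra. For Nr1h3 they were Acp5, which encodes tartrate-resistant acid phosphatase, Fxyd5, which encodes a regulator of the sodium pump, and Csta2, a stefin protease inhibitor gene (r = 0.996, 0.996 and 0.995). For Nr1h3, 313 genes exceeded 0.95. These are descriptions over 6 arrays. For Nr1h3 those arrays share the difference between the groups and the low value of PGC-1αf/f replicate 3.

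Genes around the receptors were followed in 7 lists of 113 genes together, of which 76 had a tested probe. Of these, 0 passed an adjusted p of 0.05 with limma, 6 (7.89%) were higher at an unadjusted p under 0.05, beside 8.16% of all genes, and 2 (2.63%) were lower, beside 5.71%. Their median difference was 0.12 against 0.03 over all genes, and 69.7% were positive against 54.1%. The smallest adjusted p was 0.129. Leaving out PGC-1αf/f replicate 3 gave a median of 0.07 against 0.02 and 60.5% positive against 53.9%, and leaving out mPGC-1α replicate 3 gave 0.17 against 0.02 and 72.4% against 52.6%. No list was tested as a set.

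The coregulators, which bind the receptors and recruit chromatin enzymes, had 15 of 17 genes tested and a median difference of -0.04. Apart from Ppargc1a, the highest was Ppargc1b, which encodes the related coactivator PGC-1β, at 0.35 (SE 0.22, limma adjusted p = 0.440), and at 0.59 without PGC-1αf/f replicate 3 (adjusted p = 0.205). The lowest were Tbl1xr1, a subunit of the NCoR corepressor complex, at -0.43 (adjusted p = 0.280), and Nrip1, which encodes the corepressor RIP140, at -0.26 (adjusted p = 0.384). For both of the latter every mPGC-1α value was below the lowest control.

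Among further partners of RXR, 5 of 12 genes were tested and 5 were never well above background. Rara, which encodes retinoic acid receptor α, read -1.16, -0.999 and -3.15 in controls against -0.45, -0.08 and 0.12 in mPGC-1α microglia. The groups did not overlap, and PGC-1αf/f replicate 3 was far below the rest. The difference was 1.63 (SE 0.55, limma adjusted p = 0.241), and 0.94 without that array. Thrb, for thyroid hormone receptor β, was well above background on 0 control arrays and 3 mPGC-1α arrays. It entered the test only through mPGC-1α, the group where it was higher, and its groups overlapped. Each control was then set at the higher of its own signal and the lowest signal well above background on its array. Against these values the mPGC-1α mean was 1.28-fold higher, a figure that was not tested and includes the low PGC-1αf/f replicate 3. As measured, the log2 difference of Thrb was 0.48, and 0.18 without that array. Rxrg and Thra gave 0.11 (adjusted p = 0.936) and -0.19 (adjusted p = 0.576), and Rxrg changed sign, to -0.52, without PGC-1αf/f replicate 3. Thra was -0.29 without mPGC-1α replicate 3.

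The ligand supply list holds enzymes that make or clear receptor ligands and the proteins that carry them, and 11 of its 20 genes were tested, with a median of 0.30. Fabp5, a carrier known to deliver fatty acids and retinoic acid to PPARδ, read 1.48, 1.61 and 0.68 against 1.91, 1.67 and 2.44. Every mPGC-1α value was above the controls, by a small margin in replicate 2. The difference was 0.75 (SE 0.30, adjusted p = 0.285), and 0.46 without PGC-1αf/f replicate 3. The lowest were Fabp7 at -0.11 (adjusted p = 0.914) and Rdh10 at 0.03 (adjusted p = 0.958), which became -0.54 and -0.14 without that array and -0.23 and 0.22 without mPGC-1α replicate 3. Without mPGC-1α replicate 1 the median of this list was 0.07.

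ERR targets, genes of the tricarboxylic acid cycle, respiratory chain and fuel choice, had 15 of 18 genes tested and a median of 0.17. The highest were Pdk4, a kinase that shuts off pyruvate dehydrogenase, at 0.56 (SE 0.41, adjusted p = 0.503), and Slc25a4, an ADP/ATP carrier, at 0.44 (SE 0.27, adjusted p = 0.437). The lowest were Ulk1, the autophagy kinase, at -0.27 (SE 0.19, adjusted p = 0.480), and Fh1, fumarate hydratase, at -0.26 (SE 0.24, adjusted p = 0.588). All 4 overlapped between the groups, and without PGC-1αf/f replicate 3 they differed by 0.18, 0.23, -0.08 and -0.31. Without mPGC-1α replicate 3, Fh1 was -0.16. Mdh2, the mitochondrial malate dehydrogenase, was the 1 ERR target higher at an unadjusted p under 0.05, and is named here after its values were seen. It read 3.21, 3.20 and 2.96 in controls against 3.58, 3.36 and 3.56 in mPGC-1α microglia, with no overlap between the groups. Its difference was 0.38 (SE 0.14, adjusted p = 0.265), and 0.30 when PGC-1αf/f replicate 3 was left out. The median of the list was 0.09 when PGC-1αf/f replicate 3 was left out.

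PPARα and PPARδ targets, mostly enzymes of fatty acid oxidation, had 15 of 19 genes tested and a median of 0.16, or 0.05 without PGC-1αf/f replicate 3. Ehhadh, a peroxisomal enzyme of fatty acid oxidation, read -1.57, -1.56 and -1.52 in controls against -2.05, -2.20 and -1.77 in mPGC-1α microglia. These groups did not overlap, with all 3 mPGC-1α arrays lower, and the difference was -0.46 (SE 0.15, adjusted p = 0.233). Acsl1, which activates long-chain fatty acids, differed by -0.14 (SE 0.13, adjusted p = 0.609).

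Of 12 PPARγ targets, 5 were tested and 5 were never well above background, among them the adipocyte genes Adipoq and Plin1. Lpl, which encodes lipoprotein lipase, read -0.23, -0.05 and -0.83 against 0.20, 0.57 and 0.48. The groups did not overlap, and the difference was 0.79 (SE 0.23, adjusted p = 0.201). Leaving out PGC-1αf/f replicate 3 gave 0.56. Slc2a4, the insulin-responsive glucose transporter, differed by 0.34 (adjusted p = 0.452). The scavenger receptor Cd36 and the lipase Lipe differed by -0.20 (adjusted p = 0.744) and -0.10 (adjusted p = 0.824). Without mPGC-1α replicate 3 they were -0.52 and 0.04, and without PGC-1αf/f replicate 3 Slc2a4 was 0.20 and Lipe -0.004.

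LXR targets, genes of cholesterol efflux, lipoproteins and lipid synthesis, had 11 of 16 genes tested. Their median was 0.05, and it changed sign after quantile normalization (-0.07), scaling by medians (-0.08) and normexp background correction (-0.03). Apoc1, an apolipoprotein of the Apoe cluster, read 0.51, 0.67 and 0.59 in controls against 1.22, 2.14 and 2.05 in mPGC-1α microglia. The controls, PGC-1αf/f replicate 3 included, lay close together and below every mPGC-1α array. Its difference was the largest of the LXR targets, at 1.21 (SE 0.25, 95% interval 0.62 to 1.81, limma adjusted p = 0.129). Abcg8, a sterol transporter, differed by 0.47 (adjusted p = 0.238), with 1 control array and 3 mPGC-1α arrays well above background. It too entered the test only through the group where it was higher, and it is among the 6 pathway genes counted as higher. The lowest were Arl4c at -0.33 (adjusted p = 0.541) and Lpcat3, a phospholipid-remodelling enzyme, at -0.08 (adjusted p = 0.739). Arl4c rested on mPGC-1α replicate 3 and was -0.02 without it.

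**Figure D5:**
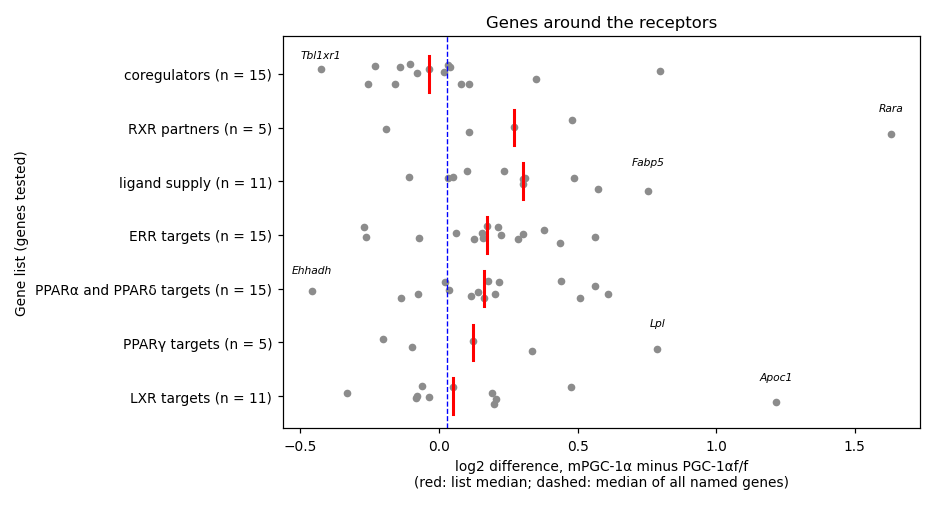
Each grey point is the log2 difference (mPGC-1α minus PGC-1αf/f) of a tested gene, gene names mark the highest or lowest of a list where it passed an unadjusted p of 0.05, red bars are list medians and the dashed line is the median of all named genes (0.03). The medians run from -0.04 for coregulators to 0.30 for ligand supply, and Rara (1.63, or 0.94 without PGC-1αf/f replicate 3) and Apoc1 (1.21 with or without it) lie farthest from 0; the spread of points along the height of a list has no meaning.

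Promoters of the receptor genes were searched on both strands for the ERR element TCAAGGTCA, for its form with any letter in the place of the C (TNAAGGTCA) and for the hexamer AGGTCA, which both forms contain. All 10 genes had at least 1 of 19 RefSeq promoter windows (GRCm38.p6, from 250 bases before to 50 bases after a start). In 0 of the 19 windows was either form of the ERR element found, beside 0.423% of 32851 promoter windows of all genes for TCAAGGTCA and 1.28% for TNAAGGTCA. The hexamer was found in 3 windows, of Pparg and Rxra, beside 16.3% of all windows. The fragments are shown because they are the only matches in the family, written along the gene on the plus strand with the hexamer, or its reverse complement, in capitals. They lie at chr2:27709193-27709222 and chr2:27709232-27709261 for Rxra and at chr6:115361104-115361133 and chr6:115362328-115362357 for Pparg, in this order:
Rxra, reverse complement: tagaaatgggtgTGACCTgagtaatggtca
Rxra, forward: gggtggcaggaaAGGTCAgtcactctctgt
Pparg, at the lower coordinate: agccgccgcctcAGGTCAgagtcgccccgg
Pparg, at the higher coordinate: agggacgcgaggAGGTCAagaaggggcctg

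Direct repeats of the hexamer spaced by 1 base (DR1, the usual PPAR:RXR form) or by 4 bases (DR4, the usual LXR:RXR form) were found in 0 of the 19 windows. DR1 was in 13 and DR4 in 5 of all 32851 windows. A match is a description of letters and not a binding site. Rxra, the 1 tested gene with the hexamer, differed by 0.08. The 8 tested genes without it in these windows ranged from -0.20 (Ppard) to 1.05 (Esrrb and Esrrg).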

How the data were processed

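Microglial RNA of 6 samples, 3 PGC-1αf/f and 3 mPGC-1α, grouped by the labels, was measured on 1-colour Cy5 Agilent mouse arrays. The deposited scanner files hold, per spot, the processed intensity that the authors obtained with Feature Extraction 11.5.1.1 (per the submitters' processing notes), after subtraction of background and spatial correction. A deposited table of the whole series holds the authors' intensity values per probe, without normalization between arrays. The study's methods name GeneSpring and no test per gene. The log2 values used here were computed from the deposited processed intensity.

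Of 62976 spots per array, 59305 were no controls. Spots flagged as outliers were left out (101 to 1382 per array), log2 intensity minus the 75th percentile of the array was taken, and spots of a probe were averaged to 56605 probes. The 75th percentile was 1012 to 2138 intensity units, and 0 spots were saturated. A probe was tested where it was well above background, on at least 0.5 of its spots, on all arrays of at least 1 group (25333 probes, 25257 with a p-value). Tests used limma 3.58.1 in R 4.3.3 (lmFit and eBayes, two-sided, no covariate), with Benjamini-Hochberg adjustment over those probes, 20 of which passed 0.05. Transcript accessions were matched to RefSeq symbols: 33767 probes had 1 symbol. The brightest tested probe with values on all arrays represented a gene, and further probes of the receptors are given in the text. The code was tested on simulated data.

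Named genes were the 10 receptors with every probe, Ppargc1a, up to 2 highest and 2 lowest of each pathway list, any list gene past the threshold, and the 3 genes most like Esrra and Nr1h3; some genes that this rule names are not reported here. The members and lists were chosen with earlier results of these data known. Alternatives changed the normalization (quantile, median, normexp with offset 50, the deposited table), the filter, the model and the arrays. No array probe or protein sequence was used here.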

Additional observations from a re-analysis of the deposited data

How the results depend on the processing

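The count of 0 receptor genes past an adjusted p of 0.05 was the same under all 17 alternatives. The count of 0 pathway genes became 1 with array weights, which give arrays unequal influence (Apoc1, 1.26, adjusted p = 0.0420), and 1 with the deposited table without normalization (Rara, 1.59, adjusted p = 0.0142). Over the alternatives, Esrrb ranged from 0.65 to 1.38 (adjusted p 0.0670 to 0.5003), Esrrg from 0.76 to 1.35 (0.0558 to 0.473) and Nr1h3 from 0.49 to 1.08 (0.210 to 0.749). Direction changed for Esrra after scaling by medians (-0.0276), for Rxra after quantile normalization (-0.0149) and scaling by medians (-0.0503), for the median of PPARγ targets after scaling by medians (-0.0117), and for the median of LXR targets after quantile normalization (-0.0672), scaling by medians (-0.0843) and normexp (-0.0253). Scaling by medians moved the median of all probes to -0.14. With arrays left out in turn, Rxra ranged from -0.0161 (without mPGC-1α replicate 3) to 0.158 and Ppara from -0.0263 (without mPGC-1α replicate 1) to 0.284. Arrays of the same replicate number had correlations of deviations of 0.139, 0.127 and 0.0187. With 3 arrays per group, these values cannot settle whether replicate numbers mark pairs. Replicates 1 and 2 of each group also shared slide columns, and the fitted correlation within columns was 0.349. With a replicate block, 0 probes of all passed (20 without it), and Esrrb, Esrrg and Nr1h3 differed by 1.05, 1.05 and 0.86 (adjusted p = 0.188, 0.158 and 0.278); the genes higher at an unadjusted p under 0.05 fell from 3 to 2, as Nr1h3 left (unadjusted p = 0.0552). Nr1h3 kept an unadjusted p under 0.05 in 12 of 17 alternatives, Esrrb in 16 and Esrrg in 17. The causes of these changes were not tested.
Signal over background limits Ppara and Pparg: the latter was well above background on 1 of 6 arrays and has no tested difference.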

Other observations

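Genes other than the receptors whose promoter window held the ERR element TCAAGGTCA numbered 34 among 9842 tested genes with a window. Their median log2 difference was 0.10, against 0.02 over all 9842 genes. With any letter in place of the C, 99 genes held the element, with a median of 0.10. Of these 13.1% were higher in mPGC-1α microglia at an unadjusted p under 0.05, against 8.10% of all genes with a window, and 3.03% were lower, against 5.73%. The hexamer AGGTCA was in the windows of 1503 tested genes, with a median of 0.06. These shares are descriptions over genes measured on the same 6 arrays, PGC-1αf/f replicate 3 included, and were not tested.

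None of the 14 ERR target genes with a promoter window held either form of the ERR element in that window, and 3 held the hexamer. The windows cover 300 bases around a start and leave out introns and distant sites.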
